A study of Homo sapiens with 30 samples.

Results

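Soshiho-tang is a traditional herbal decoction, tested here as a 70% ethanol extract on HT29, a long-established line from a human colorectal adenocarcinoma. The comparison set 3 libraries of cells given the high dose (labelled 500 µg/mL) against 3 libraries given the low dose (labelled 20 µg/mL), all harvested after 24 h. These 6 libraries were chosen by the formula and dose in their titles, out of 30 in the series, and no measured value entered the choice. Both doses carry the same extract, so the contrast addresses its amount, with any solvent that came with it, and not its presence. The groups set beside it had 3 libraries each. They were the vehicle, Soshiho-tang at a medium dose (labelled 100 µg/mL), and Yijin-tang at 3 doses. Yijin-tang is another formula, also given as an ethanol extract, at doses labelled 500, 100 and 20 µg/mL.

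The doses are uncertain. The design text says that an extract whose IC20, the concentration that inhibits by 20%, lay below 500 µg/mL was used at that IC20 and at dilutions of it, while the labels give 500, 100 and 20 µg/mL. The solvent is uncertain too: 0.1% DMSO is written on the vehicle libraries, but 2% DMSO stands in the design text. The labels give no DMSO share for the extract libraries, so solvent that rose with dose could not be told apart from extract. Nothing in the labels says that the replicates came from separate cultures. The p-values therefore cover only the spread among these libraries, which may be technical. The herbs of the extract, their amounts and the number of cells that survived are not given in the sources used here, and fewer cells of one state and less RNA per cell cannot be told apart in bulk RNA.

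The high-dose libraries held 22.6, 28.0 and 20.5 M counts and the low-dose libraries 22.1, 24.5 and 25.0 M. Transcripts encoded in mitochondria took 9.06% to 10.8% of counts at the high dose and 10.8% to 12% at the low dose. On the first principal component, which held 17.4% of the variance of 21 libraries, the high-dose libraries lay at 31.66 to 35.58 and the medium-dose, low-dose, Yijin-tang and vehicle libraries apart from them. The vehicle libraries stood apart on the second component (8.85%). They shared the fit (its filter on low counts, scaling and estimate of spread), and a fit of the 18 extract libraries alone called 5270 genes in place of 4254. All 12 markers of the labelled colon epithelial identity were measured. They summed to 12800 to 13300 CPM (counts scaled to a common library size) at the high dose and 11500 to 12400 CPM at the low dose. Most of the sum came from the keratins KRT8 (5580 to 6640 CPM) and KRT18 (3710 to 4330 CPM), so it says little about colon in particular. CDX1 was the lowest of the 12, at 0.411 to 0.939 CPM, and CDX2 had 3.2 to 4.29 CPM. Between the doses 5 of the 12 were called higher and 4 lower. Of the markers of other cell types, 6 of fibroblasts summed to 2.15 to 2.51 CPM at the high dose and 1.80 to 2.48 CPM at the low dose, with DCN at 0. The 5 leukocyte markers summed to 7.67 to 8.04 CPM and 7.53 to 9.97 CPM in the same order, with CD3E at 0, and the 4 endothelial markers to 1.69 to 2.09 CPM and 1.29 to 1.49 CPM, with KDR at 0.

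Several pathways that respond to plant compounds are well described. The aryl hydrocarbon receptor (AHR) is a transcription factor that binds flat aromatic ligands and turns on cytochrome P450 genes of the first family. NRF2 is a transcription factor that is released from its inhibitor by electrophiles and oxidants and turns on genes of glutathione, thioredoxin and NADPH supply. ATF4 drives amino acid uptake and synthesis when cells lack amino acids or meet endoplasmic reticulum (ER) stress. In the gut, ATOH1 commits progenitors to the secretory lineage and is held down by Notch signalling, and interferon-stimulated genes are driven by a complex that contains STAT2 and IRF9.

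Promoter sequences of genes described below, and of DDX60, whose change is not given, are shown because they carry the motifs these factors bind. They come from RefSeq windows on GRCh38.p14 that span 250 bases before to 50 bases after a transcription start, and only stretches before the start are printed, 5′ to 3′ on the strand of the gene. Both strands were searched, and a gene counts when any of its windows holds the motif. The core of the AHR element, GCGTG, was held by 40.6% of the 27305 genes in the table and by 57.3% of the 10912 tested genes with a window. All 9 AHR targets with a window held it, but so did 63.2% of the genes called higher and 50.6% of those called lower. Among the 15 largest rises it was held by 4 of 9 genes with a window, and among the 15 largest falls by 11 of 14. In the CYP1A1 stretch the capitals mark that core.
CYP1A1 (chr15:74725531-74725630, minus strand): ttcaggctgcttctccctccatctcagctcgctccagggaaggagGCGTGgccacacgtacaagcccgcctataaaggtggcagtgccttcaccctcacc

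The core of the antioxidant response element was searched as TGACNNNGC, which also matches sequences with the AP-1 core TGACTCA. It was held by 16.1% of all genes, by 19.4% of the tested genes and by 5 of 18 NRF2 targets with a window. The ATF4 list (6 of 19) and the interferon list (8 of 26) held it at similar shares. The stretches of TXNRD1, ME1 and GCLM show it in capitals, on the opposite strand in GCLM.
TXNRD1 (chr12:104215635-104215734, plus strand): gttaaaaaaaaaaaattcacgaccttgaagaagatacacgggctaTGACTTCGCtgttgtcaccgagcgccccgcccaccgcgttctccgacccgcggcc
ME1 (chr6:83431134-83431233, minus strand): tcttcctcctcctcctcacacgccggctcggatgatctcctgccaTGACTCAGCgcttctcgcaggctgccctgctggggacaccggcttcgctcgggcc
GCLM (chr1:93909431-93909509, minus strand): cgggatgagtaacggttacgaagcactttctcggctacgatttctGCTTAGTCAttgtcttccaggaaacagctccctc

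The core of the amino acid response element, a composite site for C/EBP and ATF factors, was searched as TGATGNAAN. It was held by 4.45% of all genes, by 2.79% of the tested genes and by 3.66% of the genes called higher. Of the 19 ATF4-list genes with a window 5 held it, all among the 13 that rose. ASNS and CHAC1 are shown, with CHAC1 matching on the opposite strand.
ASNS (chr7:97872422-97872521, minus strand): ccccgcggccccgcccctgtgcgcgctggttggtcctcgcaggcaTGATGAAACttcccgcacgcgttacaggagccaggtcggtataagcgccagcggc
CHAC1 (chr15:40953221-40953320, plus strand): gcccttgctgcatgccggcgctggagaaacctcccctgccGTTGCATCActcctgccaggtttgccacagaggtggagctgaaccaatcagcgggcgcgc

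The interferon-stimulated response element was searched as a pair of TTTC blocks 2 bases apart. It was held by 4.38% of all genes, by 3.78% of the tested genes and by 5.92% of the 1572 genes called lower that had a window. Of the 26 interferon-list genes with a window 19 held it (73.1%), and of the members called lower 15 of 21 (71.4%). The stretches of IFIT1, IFI44L and DDX60 are shown, with the element read on the opposite strand in IFI44L and DDX60. A match is a description of the letters in this window and not a site of binding.
IFIT1 (chr10:89392462-89392561, plus strand): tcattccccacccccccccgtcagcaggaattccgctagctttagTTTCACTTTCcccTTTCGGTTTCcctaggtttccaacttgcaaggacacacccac
IFI44L (chr1:78620239-78620338, plus strand): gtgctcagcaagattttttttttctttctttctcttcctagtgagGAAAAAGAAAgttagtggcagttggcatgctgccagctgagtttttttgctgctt
DDX60 (chr4:168318786-168318885, minus strand): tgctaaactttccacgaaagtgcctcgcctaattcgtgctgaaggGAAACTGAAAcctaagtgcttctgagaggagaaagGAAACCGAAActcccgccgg

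The high dose was far from the low dose. Of 15882 genes tested, 4254 (26.8%) had a Benjamini-Hochberg adjusted p below 0.05 in the edgeR quasi-likelihood test. They divided into 2117 genes higher at the high dose (13.3%) and 2137 lower (13.5%). With libraries scaled by their totals alone, the split was 1363 higher and 2536 lower, a shift of the median gene to -0.05 on the log2 scale. Most changes were small. The median log2 fold change of the genes called higher was 0.22, and 1273 of them rose by less than 0.25, while the median of those called lower was -0.40. At least 2-fold changes were 73 rises and 288 falls. Genes called higher were abundant, with a median of 67.6 CPM against 17.0 CPM over all tested genes, and those called lower had a median of 13.4 CPM. Of the 288 at least 2-fold falls, 169 were of genes below 1 CPM. Protein-coding genes split into 2057 higher and 1858 lower of 12652, and long noncoding genes into 50 higher and 216 lower of 2230.

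**Figure D1:**
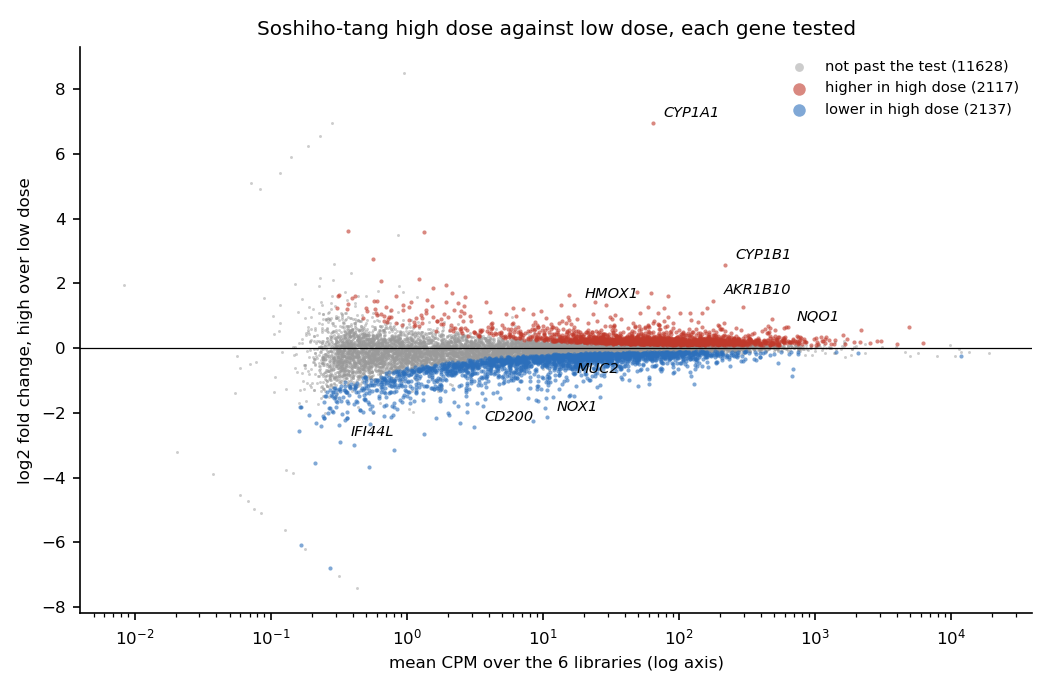
Each point is 1 of the 15882 genes tested, with its mean CPM over the 6 libraries on a log axis and its log2 fold change, high over low dose, on the vertical axis. Red points (2117) are higher and blue points (2137) lower in the high dose at an adjusted p below 0.05, and the large falls lie among genes of low CPM.

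The largest rise was that of CYP1A1, the cytochrome P450 enzyme that is the classical AHR target (chr15:74719542-74725610, minus strand). It had 127, 133 and 123 CPM in high-dose libraries, against 0.631, 1.43 and 1.02 CPM in low-dose libraries. No high-dose library came near a low-dose one, and the log2 fold change was 6.94 ± 0.28 (SE; edgeR quasi-likelihood adjusted p = 6.6e-11). CYP1B1, its relative that hydroxylates estrogens and polycyclic compounds, had 365, 375 and 372 CPM at the high dose and 53.2, 67.6 and 67.2 CPM at the low dose (2.56 ± 0.21). TIPARP, a mono-ADP-ribosyltransferase that restrains AHR, had 224, 219 and 233 CPM at the high dose and 93.1, 93.9 and 101 CPM at the low dose (1.23 ± 0.088). All 11 measured genes of the AHR list were called higher, with a median log2 fold change of 0.65 against -0.01 over all genes. The smallest were the receptor's own repressor AHRR (0.53), the amino acid transporter subunit SLC7A5 (0.43), the efflux pump ABCG2 (0.27) and NFE2L2 (0.22), which encodes NRF2. Among 22 measured cytochrome P450 genes as a family, 5 rose and 3 fell, with a median of 0.07. The falls numbered 1 without high-dose library 3. Besides CYP1A1 and CYP1B1 the rises were of CYP4F11 (1.3), CYP4F3 (1.07) and CYP4F12 (0.53), hydroxylases of fatty acids and leukotrienes that lie beside each other and share sequence.

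Of 16 aldehyde dehydrogenases 4 rose and 5 fell. ALDH3A1, which clears aromatic and lipid aldehydes, had 79.6, 73.1 and 74.8 CPM at the high dose and 19.7, 24.7 and 23.6 CPM at the low dose (1.74 ± 0.11). ALDH1A3, a retinaldehyde dehydrogenase, had 97.1, 101 and 87.2 CPM at the high dose and 26.6, 30.9 and 31 CPM at the low dose (1.69 ± 0.17). The groups did not overlap in either gene, which the choice of the largest rises required. The falls included the succinic semialdehyde dehydrogenase ALDH5A1 (-0.77) and the folate enzyme ALDH1L1 (-0.68). Among genes of glucuronidation the UGT1A members UGT1A1 (0.76), UGT1A6 (0.65), UGT1A10 (0.50) and UGT1A8 (0.42) rose, and UGT2B15 (-1.85) and UGT2B7 (-1.17) fell. The UGT1A genes share their last exons and the UGT2B genes are near-identical copies, so their counts are uncertain, and UGT2B15 missed the threshold in 3 of the fits that left out 1 library.

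NRF2 targets rose together. Of 28 measured, 27 rose and none fell, and NMRAL2P (0.78) did not pass. The list's median log2 fold change was 0.65. AKR1B10, an aldo-keto reductase that reduces aldehydes and retinal, had 258, 264 and 263 CPM at the high dose and 98.7, 90.8 and 95.1 CPM at the low dose (1.47 ± 0.049). HMOX1, heme oxygenase, had 25.2, 25.2 and 22.2 CPM at the high dose and 11.0, 9.68 and 8.20 CPM at the low dose (1.34 ± 0.085). SLC7A11, the cystine carrier that feeds glutathione synthesis, had 408, 415 and 417 CPM at the high dose and 176, 170 and 173 CPM at the low dose (1.25 ± 0.092). High-dose and low-dose values did not overlap in these 3 genes, a condition of choice for AKR1B10 and HMOX1. Glutamate-cysteine ligase makes the precursor of glutathione, and its modifier subunit GCLM rose by 1.09 and its catalytic subunit GCLC by 0.86 on the log2 scale. Of the thioredoxin branch, TXNRD1 rose by 0.90, the sulfiredoxin SRXN1 by 0.65 and thioredoxin TXN by 0.38. The NADPH producers and pentose phosphate enzymes ME1 (0.51), TKT (0.33), PGD (0.22) and TALDO1 (0.15) also rose. In contrast, the cytosolic isocitrate dehydrogenase IDH1, another NADPH source, fell (-0.46), as did ALDH1L1. AKR1C1, AKR1C2 and AKR1C3 rose by 0.82, 1.04 and 1.07, but near-identical copies make the division of reads between them uncertain.

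Among iron genes ferritin rose and ferroportin fell. Ferritin heavy chain FTH1 had 6010, 5950 and 5990 CPM at the high dose and 3890, 3830 and 3810 CPM at the low dose (0.64 ± 0.055). The ferritin light chain FTL (0.55) and the transferrin receptor TFRC (0.38) rose too. SLC40A1, ferroportin, the only known iron exporter, had 56.8, 55.3 and 56.4 CPM at the high dose and 93.7, 88.4 and 94.7 CPM at the low dose (-0.72 ± 0.046). Of the 18 iron and heme genes measured, 7 rose and 4 fell, and 2 fell with DESeq2, with no filter on low counts, without high-dose library 2 and without low-dose library 3.

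**Figure D2:**
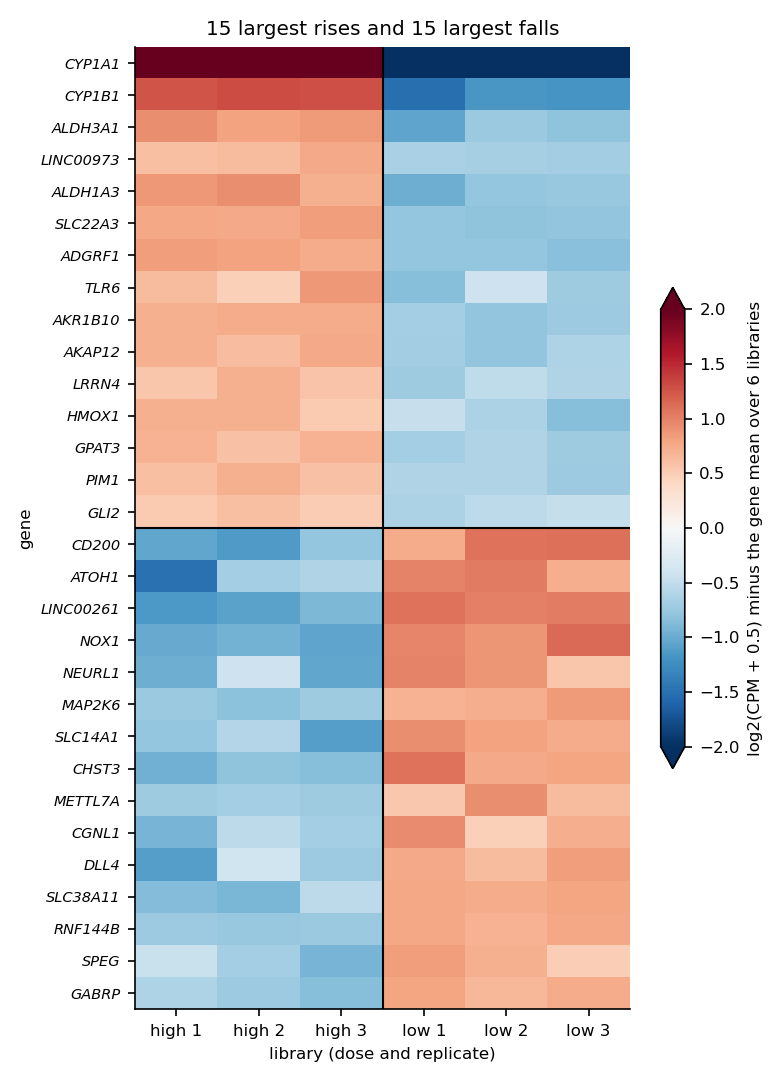
The map shows the 15 largest rises (top) and 15 largest falls (bottom) among genes with at least 2 CPM, with the 3 high-dose libraries left and the 3 low-dose libraries right. Colour is log2(CPM + 0.5) minus the gene's mean over the 6 libraries, cut at ±2, and the genes were chosen so that the groups do not overlap.

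Stress and protein-making genes were higher. Of 24 genes of the ATF4 and amino acid response, 15 rose and none fell (median 0.35). ASNS, asparagine synthetase, had 86.7, 85.1 and 94.0 CPM at the high dose and 54.4, 54.8 and 54.2 CPM at the low dose (0.70 ± 0.051). The glutathione-degrading CHAC1 rose by 0.66, the transcription factor ATF3 by 0.64 and the pseudokinase TRIB3 by 0.46. DDIT3, which encodes the factor CHOP, had 6.58, 6.34 and 6.55 CPM at the high dose and 4.96, 4.62 and 5.10 CPM at the low dose (0.41 ± 0.12; edgeR adjusted p = 0.013). It missed the threshold without low-dose library 2 (adjusted p = 0.061). Of 20 ER chaperone genes 18 rose, led by HSPA5, the main chaperone of that compartment, and CRELD1 fell (-0.30). CRELD1 missed the threshold with DESeq2 and without high-dose library 1 or 3 or low-dose library 2 or 3. HSPA5 had 628, 611 and 586 CPM at the high dose and 423, 402 and 419 CPM at the low dose (0.55 ± 0.043). Of 20 heat shock genes 14 rose by small amounts (median 0.21), among them the cochaperone FKBP4 (0.36) and HSP90AA1 (0.35). FKBP4 had 256, 258 and 254 CPM at the high dose and 197, 198 and 201 CPM at the low dose. The vehicle libraries, at 238, 251 and 249 CPM, lay nearer to the high dose. The small heat shock protein HSPB1 fell, with 95.3, 90.5 and 89.9 CPM at the high dose and 131, 140 and 119 CPM at the low dose (-0.50 ± 0.075).

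The proteasome, which degrades tagged proteins, moved as a block: 30 of its 37 subunit genes rose and 1 fell (median 0.21). PSMD14, a deubiquitinase of its cap, had 105, 110 and 109 CPM at the high dose and 89.2, 80.9 and 87.4 CPM at the low dose (0.33 ± 0.053). The member that fell was PSMB8 (-0.47), an interferon-inducible subunit of the immunoproteasome, and its partner PSMB9 was at -1.07 without passing. Of 20 cytosolic aminoacyl-tRNA synthetases 17 rose (median 0.18), led by WARS1 (0.33), and QARS1 fell (-0.18). Of 29 ribosome biogenesis genes 22 rose and none fell (median 0.17). With libraries scaled by totals alone, the counts of rises were 27 for the proteasome, 12 for the synthetases and 18 for ribosome biogenesis. Cytosolic ribosomal proteins stood still by comparison. Of 81 genes, RPL7L1 and RPL22L1, paralogues of the core proteins, rose, and RPL13A and RPS27L fell, a share below that of all genes in both directions. The nuclear-encoded respiratory chain had 5 rises and 1 fall of 80, and the 394 ZNF zinc finger genes had 17 rises and 31 falls. With library totals these became 2 rises and 3 falls, and 7 rises and 46 falls. Without 1 library the rises were as few as 2 (without high-dose library 2 or low-dose library 2) for the respiratory chain, and 10 (without high-dose library 3) for ZNF genes. Of 78 mitochondrial ribosomal proteins 28 rose and none fell, but 8 rose with library totals and as few as 11 without 1 library (low-dose library 1). Of the 13 mitochondrially encoded genes MT-CO3 fell (-0.23) and the others did not pass. No member of these 13 was called without high-dose library 2 or low-dose library 1 or 2.

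Cell cycle genes that passed were higher by small amounts. Of 36 DNA replication genes 16 rose and none fell (median 0.11), and of 30 mitotic genes 16 rose and none fell (median 0.18). CDC6, which loads the replicative helicase, had 114, 109 and 116 CPM at the high dose and 92.9, 89.0 and 87.9 CPM at the low dose (0.33 ± 0.041). The mitotic cyclin CCNB1 rose by 0.27 and the kinase PLK1 by 0.23. MKI67, the proliferation marker, had 1130, 1040 and 1130 CPM at the high dose and 1040, 1060 and 1010 CPM at the low dose. Those groups overlapped and MKI67 did not pass (0.09 ± 0.053; edgeR adjusted p = 0.22). CDKN1A, which encodes the cyclin kinase inhibitor p21, was also up, with 13.3, 13.6 and 14.9 CPM at the high dose and 10.5, 10.0 and 10.4 CPM at the low dose (0.43 ± 0.084). Among 22 p53 targets, to which CDKN1A belongs, 5 rose and 6 fell, with 3 falls without high-dose library 3 and 8 rises with the 18 extract libraries. GDF15, a stress-induced secreted factor, rose by 0.68, and the antiproliferative genes BTG2 (-1.51), TP53INP1 (-1.40) and SESN1 (-0.91) fell. Of 25 histone genes measured 6 fell and none rose, and 3 fell with DESeq2 or without low-dose library 3.

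**Figure D3:**
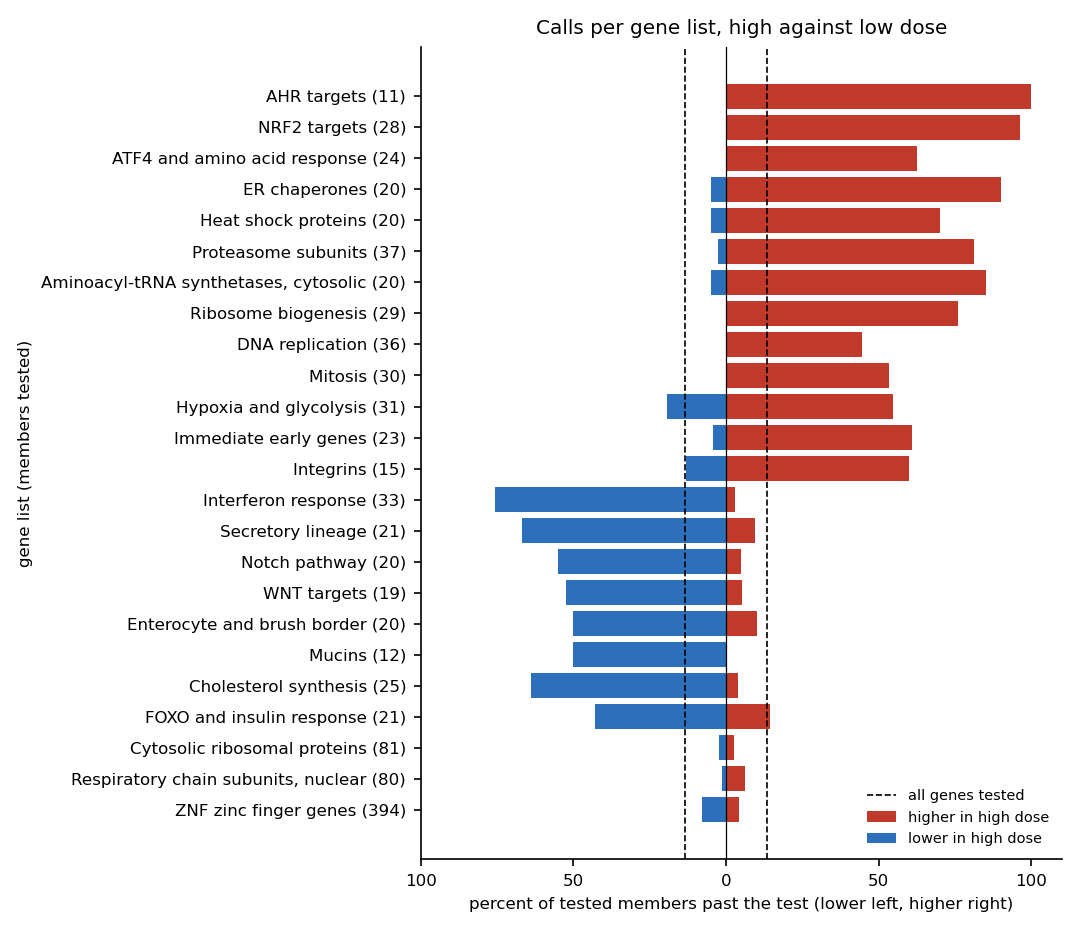
Bars give the percent of each list's tested members (number in parentheses) that were called higher (red, right) or lower (blue, left) in the high dose, and dashed lines give 13.3% and 13.5% for all genes tested. AHR, NRF2, chaperone, proteasome and synthetase lists lie far right of the line, and interferon, secretory, Notch, WNT and cholesterol lists far left.

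Several genes of growth factor signalling changed. Of 13 genes of the EGF receptor family and its ligands 6 rose and 3 fell. EREG, epiregulin, had 157, 165 and 167 CPM at the high dose and 70.7, 81.4 and 79.0 CPM at the low dose (1.08 ± 0.08). The ligands AREG (0.71), HBEGF (0.58) and TGFA (0.52), the feedback inhibitor ERRFI1 (0.56) and the receptor EGFR itself (0.54) also rose. The inhibitor LRIG1 (-0.45) and the related receptors ERBB3 (-0.17) and ERBB2 (-0.13) fell. Of 23 immediate early genes 14 rose and 1 fell. FOSB had 9.18, 7.92 and 8.29 CPM at the high dose and 4.24, 4.21 and 4.24 CPM at the low dose (1.00 ± 0.11), and FOSL1 rose by 0.78. The exception was BTG2, at 14.4, 13.3 and 13.4 CPM in high-dose libraries and 40.0, 38.4 and 38.9 CPM in low-dose libraries. Among 19 genes of ERK output and feedback 9 rose and 3 fell, with the phosphatase DUSP5 up (1.21) and the inhibitor SPRY1 down (-0.66). Of 17 laminins and collagens, the fibres of basement membrane and matrix, 6 rose and 2 fell. LAMA3 rose by 0.95 and LAMB3 by 0.33, and LAMB2 (-0.64) and COL27A1 (-0.86) fell. Of 15 integrins, the receptors for such matrix, 9 rose and 2 fell, led by ITGB7 (1.14) and ITGA1 (-0.95), and 1 fell with DESeq2, without high-dose library 2 or 3, or without low-dose library 1 or 3.

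The glucose transporter SLC2A1 had 709, 726 and 710 CPM at the high dose and 471, 461 and 458 CPM at the low dose (0.63 ± 0.041). Of 31 hypoxia and glycolysis genes 17 rose and 6 fell, but 11 rose with library totals. The rises included the glycolytic enzymes PFKP (0.54), ENO2 (0.53) and HK2 (0.37). The falls were of ALDOC (-0.52) and PFKL (-0.17), also glycolytic enzymes, and of BNIP3L (-0.35), CA9 (-0.25), EGLN3 (-0.24) and PDK1 (-0.17). Without low-dose library 1 the falls numbered 3, and VEGFA (0.08) did not pass. Of 20 amino acid transporters 9 rose and 5 fell. The rises were of carriers such as SLC7A11, SLC6A9 (0.97) and SLC38A2 (0.37), and the falls of SLC7A8 (-1.66), SLC3A1 (-1.35) and SLC6A20 (-0.96).

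The secretory lineage was lower. ATOH1, its master transcription factor, had 0.366, 1.01 and 1.10 CPM at the high dose and 4.33, 4.49 and 3.53 CPM at the low dose. The highest high-dose library was below the lowest low-dose one, as its choice among the largest falls required. The log2 fold change was -2.30 ± 0.21 (edgeR adjusted p = 2.2e-09). Of 21 secretory genes measured 14 fell and 2 rose, with a median of -0.75. CREB3L1, a transcription factor of secretory cells, had 85.2, 78.1 and 80.3 CPM at the high dose and 183, 183 and 164 CPM at the low dose (-1.12 ± 0.079). MUC2, the gel-forming mucin of goblet cells, had 10.3, 9.65 and 10.2 CPM at the high dose and 23.9, 19.6 and 15.9 CPM at the low dose (-0.97 ± 0.24; edgeR adjusted p = 0.0066). The goblet products TFF3 (-0.80), FCGBP (-1.15), REG4 (-0.65) and AGR2 (-0.59) fell, while SPDEF (0.05), a factor downstream of ATOH1, did not pass. TFF2 (0.79) and KLF4 (0.58) rose, and TFF2 missed the threshold under 8 alternatives. Of 12 mucins 6 fell and none rose, among them the membrane mucins MUC13 (-0.75) and MUC3A (-0.66).

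Notch genes fell with ATOH1. Of 20 measured 11 fell, and JAG1, a ligand, rose (0.44). NEURL1, a ubiquitin ligase for Notch ligands, had 0.594, 1.12 and 0.550 CPM at the high dose and 3.79, 3.47 and 2.67 CPM at the low dose (-2.06 ± 0.24). DLL4, a ligand, had 1.05, 2.02 and 1.5 CPM at the high dose and 5.09, 4.66 and 5.41 CPM at the low dose (-1.70 ± 0.17). The ligand DLL1 (-0.96), the receptors NOTCH3 (-1.39) and NOTCH1 (-0.23), and the target HES1 (-0.33) also fell, while RBPJ (0.01), the DNA-binding partner of Notch, did not pass. Enteroendocrine and tuft genes had 4 falls and 1 rise of 11. NEUROG3, the endocrine fate factor, had 0.320, 0.288 and 0.300 CPM at the high dose and 1.13, 0.939 and 1.10 CPM at the low dose. POU2F3, the tuft cell factor, rose (0.97 ± 0.2), while TRPM5, another gene of this list, fell (-1.48).

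Of 19 WNT targets 10 fell and 1 rose, BMP4 (0.26). EPHB3, a guidance receptor of the crypt, had 10.9, 10.8 and 10.8 CPM at the high dose and 24.4, 23.6 and 24.4 CPM at the low dose (-1.16 ± 0.081). The stem cell factor ASCL2 (-1.07), SP5 (-0.94) and the feedback inhibitors NOTUM (-1.34) and NKD1 (-0.85) fell. AXIN2, the standard reporter of WNT output, had 82.5, 77.6 and 73.8 CPM at the high dose and 82.0, 76.8 and 75.0 CPM at the low dose, and those groups overlapped throughout (0.00 ± 0.052; edgeR adjusted p = 0.99). LGR5 (-0.10), RNF43 (0.03) and MYC (0.15) did not pass either. Absorptive genes fell too: of 20 enterocyte and brush border genes 10 fell and 2 rose. SLC5A1, the sodium-glucose carrier, had 5.39, 4.21 and 4.95 CPM at the high dose and 12.1, 11.4 and 10.3 CPM at the low dose (-1.23 ± 0.12). VIL1, the microvillus protein villin, was lower (-0.55), and the transcription factors HNF4G (-0.62) and HNF4A (-0.33) fell. KRT20, a keratin of mature colon cells, rose, with 346, 332 and 345 CPM at the high dose and 248, 230 and 220 CPM at the low dose (0.55 ± 0.049).

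Of 19 genes of mucosal ion and water transport 8 fell and 4 rose. SLC12A2, the basolateral sodium-potassium-chloride importer, had 471, 493 and 473 CPM at the high dose and 890, 853 and 873 CPM at the low dose (-0.87 ± 0.043). CFTR, the apical chloride channel, had 100, 101 and 101 CPM at the high dose and 163, 153 and 162 CPM at the low dose (-0.66 ± 0.046). The potassium channel subunits KCNE3 (-0.98) and KCNQ1 (-0.48) and the bicarbonate carrier SLC4A4 (-1.01) also fell. AQP3, a water and glycerol channel, rose, with 201, 198 and 204 CPM at the high dose and 98.5, 92.8 and 93.1 CPM at the low dose (1.08 ± 0.044). Among 12 claudins, the tight junction proteins, 3 fell and none rose, including the pore-forming CLDN2 (-0.74). NOX1, the colon's superoxide-producing oxidase, had 3.93, 4.11 and 3.80 CPM at the high dose and 17.0, 15.9 and 19.1 CPM at the low dose (-2.13 ± 0.1). Its organizer NOXO1 fell by 0.55 on the log2 scale.

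Interferon-stimulated genes were lower as a group: of 33 measured 25 fell and 1, SAMD9 (0.25), rose, with a median of -0.55. OAS2, a sensor of double-stranded RNA, had 0.731, 0.432 and 0.650 CPM at the high dose and 2.75, 2.33 and 2.94 CPM at the low dose (-2.17 ± 0.26). IFIT1, which binds foreign capped RNA, had 2.01, 1.33 and 1.80 CPM at the high dose and 4.24, 3.76 and 4.16 CPM at the low dose (-1.26 ± 0.17). IRF9, the DNA-binding subunit of the complex that drives these genes, had 5.21, 4.83 and 3.70 CPM at the high dose and 9.65, 9.52 and 8.71 CPM at the low dose (-1.01 ± 0.11). STAT2 fell by 0.40, while ISG15 (-0.19) did not pass. IFI44L fell as well (-2.91). The abundant member PARP14, at 99.1 to 107 CPM at the high dose and 125 to 132 CPM at the low dose, fell by 0.32. Antigen presentation genes moved less, with 5 falls and 2 rises of 20. In NF-κB targets 6 rose and 2 fell of 17, and 1 fell with DESeq2, with no filter on low counts, without high-dose library 1 or 2, or without low-dose library 1. CXCL8, the neutrophil chemokine, had 9.96, 10.3 and 9.79 CPM at the high dose and 6.81, 6.45 and 6.74 CPM at the low dose (0.59 ± 0.097).

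Lipid genes divided. Of 25 cholesterol synthesis genes 16 fell and 1 rose, with a median of -0.16. HMGCS1, the cytosolic HMG-CoA synthase, had 161, 156 and 163 CPM at the high dose and 218, 208 and 214 CPM at the low dose (-0.42 ± 0.061; edgeR adjusted p = 1.4e-05). With vehicle it had 165, 181 and 157 CPM, which overlapped the high dose and lay below the low dose. TM7SF2, a sterol reductase, fell by 0.64 on the log2 scale, and LSS, lanosterol synthase, by 0.45. GPAT3, which starts triglyceride synthesis, was among the 15 largest rises (1.34), and of 20 fatty acid synthesis genes 4 rose and 7 fell (4 without high-dose library 1). Of 21 FOXO and insulin response genes 9 fell and 3 rose, with the glucose-repressing arrestin TXNIP at -0.58.

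Several of the largest changes have not been named above. Among rises these were SLC22A3, an organic cation transporter (1.64), ADGRF1, an adhesion receptor (1.60), TLR6, a Toll-like receptor (1.59), the scaffold AKAP12 (1.42), LRRN4 (1.41), the kinase PIM1 (1.34), the Hedgehog effector GLI2 (1.3) and the long noncoding RNA LINC00973 (1.70). TLR6 had 3.93, 3.46 and 4.70 CPM at the high dose and 1.08, 1.63 and 1.25 CPM at the low dose. Among falls of genes with at least 2 CPM, CD200, a membrane glycoprotein that restrains myeloid cells, was the largest, with 0.914, 0.828 and 1.20 CPM at the high dose and 4.37, 5.64 and 5.73 CPM at the low dose (-2.44 ± 0.21). LINC00261, a long noncoding RNA of endodermal tissue, had 2.7, 2.88 and 3.3 CPM at the high dose and 14.6, 13.7 and 13.9 CPM at the low dose (-2.25 ± 0.15). The p38 kinase activator MAP2K6 (-2.0), the urea transporter SLC14A1 (-1.97), the chondroitin sulfotransferase CHST3 (-1.86), METTL7A (-1.78), the junction protein CGNL1 (-1.73), SLC38A11 (-1.64), the ubiquitin ligase RNF144B (-1.59), SPEG (-1.56) and the GABA receptor subunit GABRP (-1.54) followed. All 30 of the largest rises and falls kept their call in every alternative fit. They were chosen as large changes past the test and the alternatives reuse the same libraries, so the choice favoured this outcome.

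No gene separated the medium dose from the low dose past the test. Between the medium-dose and low-dose libraries no gene passed (0 of 15882, 0.0%; edgeR quasi-likelihood), and 474 had an unadjusted p below 0.05. DESeq2 and limma-voom also called 0, with 236 and 486 at an unadjusted p below 0.05, and a fit of these 6 libraries alone called 1. The high-to-low and medium-to-low contrasts share the low-dose libraries, so their values are only set side by side. Medium-to-low medians of the 63 lists and families lay between -0.17 and 0.10. In each of the 15 largest rises and 15 largest falls the medium-dose libraries were apart from the high-dose ones. They overlapped the low-dose ones in 12 of the rises and 14 of the falls. Such overlap was the rule over all 15882 genes, of which 744 had every medium-dose library above the low-dose ones and 713 below. The vehicle libraries were also apart from the high-dose ones in all 15 rises and all 15 falls. They overlapped the low-dose ones in 7 of the rises and 9 of the falls. CYP1A1 had 0.587, 3.02 and 2.99 CPM at the medium dose and 0.686, 0.592 and 0.510 CPM with vehicle. CYP1B1 had 47.1, 91.2 and 94.1 CPM at the medium dose. Medium-dose library 1 lay below both others in each of these AHR targets, and their medium-to-low differences did not pass (1.12 ± 0.52 and 0.31 ± 0.21). In Yijin-tang the medium-dose library of the same number lay above both others. It had 3.46 CPM against 1.33 and 1.39 CPM for CYP1A1, and 100 CPM against 66.0 and 65.7 CPM for CYP1B1. The reason was not tested. Without Soshiho-tang medium-dose library 1 no gene passed and 804 had an unadjusted p below 0.05 (edgeR). A missed threshold does not show that the medium dose equals the low dose.

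**Figure D4:**
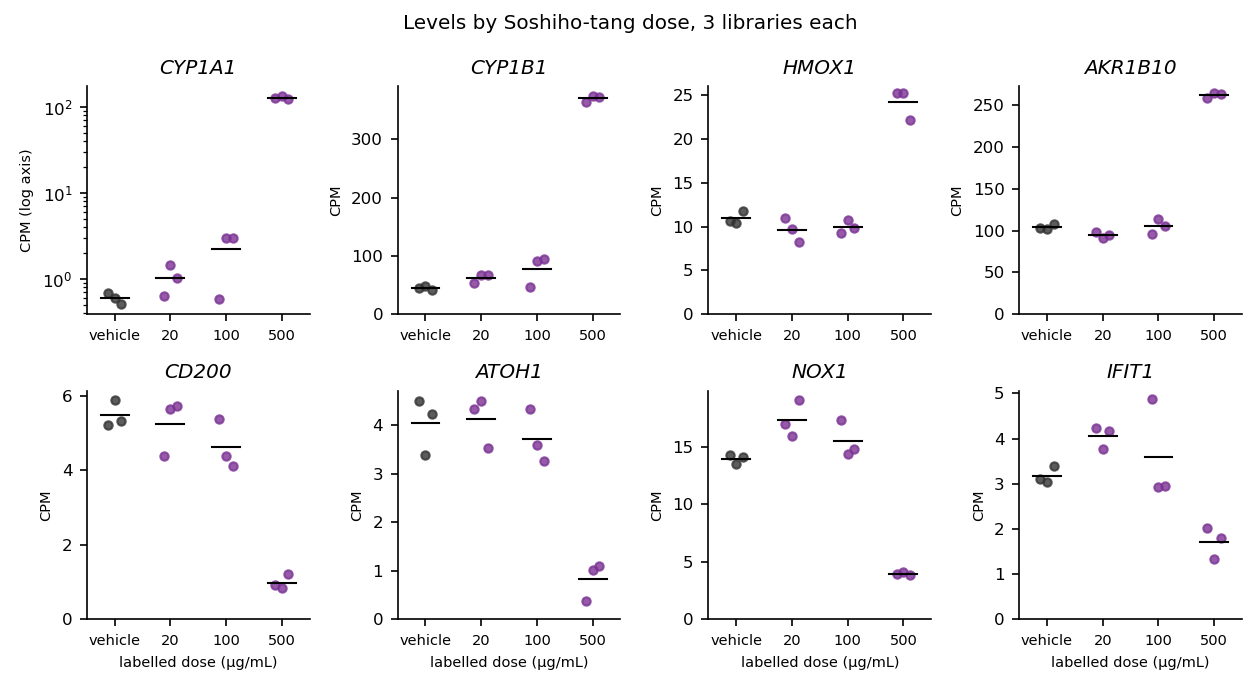
CPM of 8 genes in each library of vehicle and of Soshiho-tang at the labelled doses of 20, 100 and 500 µg/mL, with lines at the group means and a log axis for CYP1A1 only. The 500 µg/mL libraries stand apart from the others in every panel, and the 100 µg/mL libraries lie mostly near the level of 20 µg/mL. In CYP1A1, CYP1B1 and AKR1B10 the 100 µg/mL libraries 2 and 3 lie above every 20 µg/mL library.

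The same labelled step of dose in Yijin-tang, another formula of the series with its own libraries, changed fewer genes. They numbered 295 (1.86% of 15882), 115 higher and 180 lower. The real concentrations of the formulas may differ, since the doses are uncertain. The Yijin-tang count ran from 147 without its high-dose library 1 to 1579 with only the libraries compared and a replicate block. The split became 850 higher and 729 lower in that block fit, and 368 and 358 with the 18 extract libraries. A test of the difference between the high-to-low changes of both formulas called 727 genes (4.58%), 342 with the larger log2 fold change in Soshiho-tang (2.15%) and 385 with the smaller one (2.42%). For CYP1A1 the Yijin-tang high-dose mean was 7.72 CPM and its low-dose mean 0.835 CPM (3.21 ± 0.41), and the difference between formulas was 3.73 ± 0.76 (edgeR adjusted p = 0.0088). That call was lost without Yijin-tang low-dose library 2 (adjusted p = 0.07). For CYP1B1 the difference was 1.63 ± 0.29, for TLR6 1.37 ± 0.27, for ALDH1A3 1.05 ± 0.25 and for SLC22A3 1.03 ± 0.15. ALDH1A3 missed the threshold in 7 alternatives. Among genes of at least 2 CPM the largest negative differences were those of CD200 (-2.11 ± 0.27), ATOH1 (-1.87 ± 0.27), NOX1 (-1.68 ± 0.14), LINC00261 (-1.67 ± 0.2) and NEURL1 (-1.57 ± 0.31). The 15 largest rises and 15 largest falls were chosen for the size of their Soshiho-tang change, which favours a larger change there, so their differences are a description. Of these genes 10 rises and 7 falls passed in Yijin-tang on its own. The difference for LINC00973 did not pass (0.82 ± 0.26; edgeR adjusted p = 0.11).

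At their labelled doses, whose real concentrations may differ, the formulas differed by gene group. The difference was positive and past the test in 7 of 11 AHR targets, 16 of 28 NRF2 targets, 9 of 24 ATF4-list genes, 9 of 23 immediate early genes and 6 of 13 EGF family genes. It was negative in BTG2 (-1.10) of the immediate early genes and in LRIG1 (-0.38) and ERBB3 (-0.19) of the EGF family. In the EGF family the Yijin-tang change of EREG was 0.25 without passing, and the difference was 0.83 ± 0.11. For ASNS the Yijin-tang change was -0.05 and the difference 0.75. In the secretory list the difference was negative in 5 of 21 genes, among them CREB3L1 (-0.82) and REG4 (-0.65), and positive in KLF4 (0.68). It was positive in 7 and negative in 1 of 20 amino acid transporters, and positive in 6 of 20 aminoacyl-tRNA synthetases and 5 of 20 ER chaperones. In 20 enterocyte genes it was negative in 5 and positive in 2, and in 19 WNT targets negative in 4. Of 33 interferon genes 3 differed with the larger fall in Soshiho-tang, OAS2 (-1.39), IRF9 (-0.55) and IFI35 (-0.52). SAMD9 had a positive difference (0.25), and 5 fell in Yijin-tang on its own. IFIT1 had a Yijin-tang change of -0.99 and a difference of -0.27 ± 0.24 that did not pass. None of the ribosome biogenesis or mitotic genes differed past the test, and 1 of 37 proteasome genes did. In cholesterol synthesis 16 of 25 genes fell in Yijin-tang, as many as in Soshiho-tang, and the difference was positive in 4 and negative in 1. TM7SF2 had the negative one (-0.31), and SQLE (0.27), CYP51A1 (0.25) and STARD4 (0.29) were among the positive ones. INSIG1, the sterol sensor, had changes of -0.42 in Soshiho-tang and -0.49 in Yijin-tang, and HMGCS1 -0.42 and -0.49. The difference for HMGCS1 was 0.07 ± 0.086, and a missed threshold does not show that the formulas act alike. The sterol exporters differed past the test. ABCG1 had a change of 0.34 in Soshiho-tang that did not pass and one of 1.59 in Yijin-tang (difference -1.25 ± 0.2). ABCA1 fell in Soshiho-tang (-0.84) and had a change of 0.39 in Yijin-tang that did not pass (difference -1.23 ± 0.2).

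**Figure D5:**
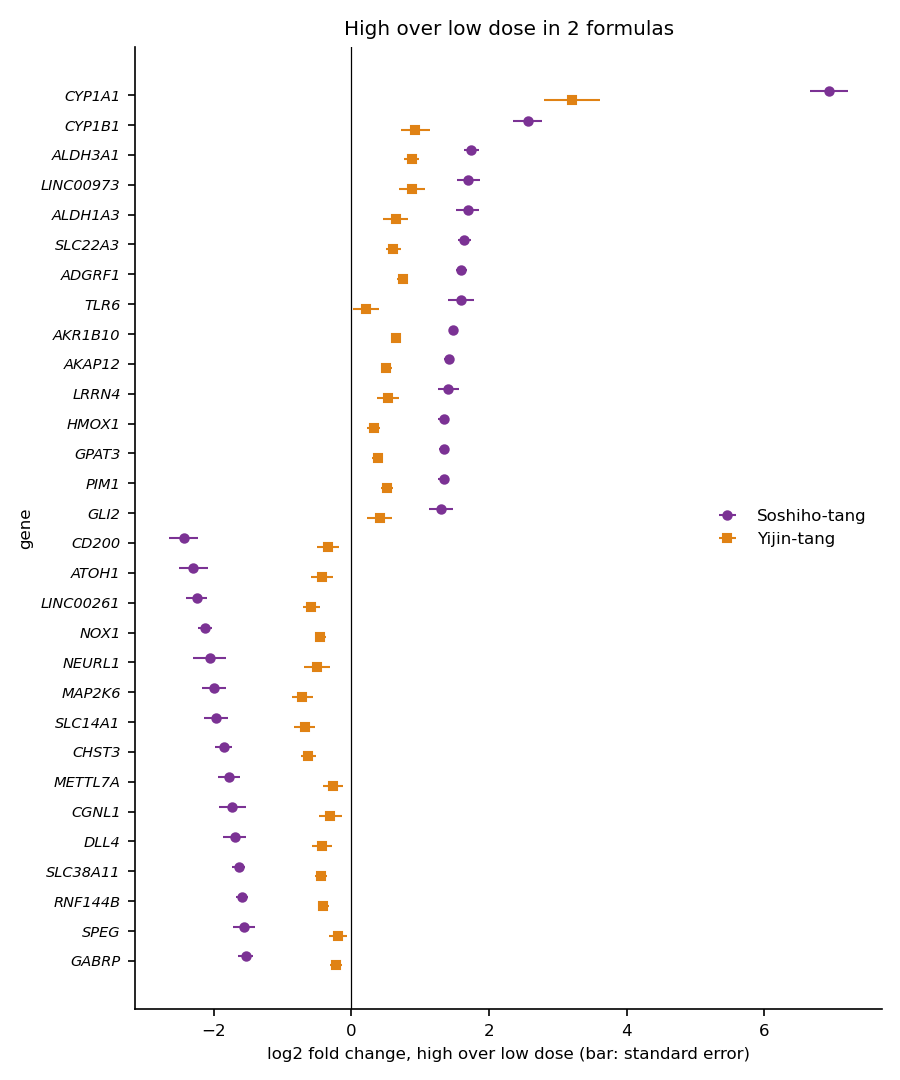
Log2 fold changes, high over low dose, of the 30 genes with the largest Soshiho-tang changes, for Soshiho-tang (circles) and Yijin-tang (squares), with bars of 1 standard error. The genes were chosen for their Soshiho-tang changes, which favours Yijin-tang points nearer to 0, as they are in every row.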

How the data were processed

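RNA from HT29 cells was sequenced by the authors, who deposited expected counts per gene, the RSEM estimate of how many reads came from a gene. Per the submitters' processing notes RSEM 1.3.3 and STAR 2.7.3a were used with the build GRCh38, besides Trim Galore 0.6.5 and FastQC 0.11.9. The annotation release is not given in the sources used here. In all, 60675 genes were deposited in 30 named columns, and 30 further columns without a name were empty and not used. Between 9.518% and 11.519% of values in a library were not whole, since reads shared by similar genes are divided, and all were rounded to whole numbers. Gene classes and positions came from GENCODE 29, which held 57055 of the identifiers.

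Counts of 21 libraries (both formulas at 3 doses and the vehicle) entered 1 fit in edgeR 4.0.16 (R 4.3.3), with filterByExpr at a minimum count of 10, TMM scaling and the quasi-likelihood test. Of the genes, 15882 passed the filter, and p-values were adjusted over all of them by Benjamini-Hochberg, with calls at 0.05. CPM are counts scaled by library total and TMM factor, and errors of log2 fold changes are standard errors. Genes named by rule were the 15 largest rises and falls with at least 2 CPM and groups that do not overlap, the 5 largest differences between formulas in each direction, up to 5 members of each list by smallest adjusted p, and 10 preset genes. Other genes named, list members included, were picked after their values were seen. The groups and lists were chosen with earlier results of these data known. The fit was tested on simulated data. Alternatives were DESeq2 1.42.0, limma-voom 3.58.1, other scalings, filters, sample sets and a replicate block, and leaving out each library. Promoter windows came from RefSeq and matched 10912 of the tested genes. Some list members are counted but not reported here by name.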

Additional observations from a re-analysis of the deposited data

Results flagged for a closer look

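These 10 genes stood out because the change between the high and low dose differed between Soshiho-tang and Yijin-tang by a test of that difference, as log2 fold change in Soshiho-tang minus that in Yijin-tang. The difference was positive for CYP1A1 (3.73), CYP1B1 (1.63), TLR6 (1.37), ALDH1A3 (1.05) and SLC22A3 (1.03). It was negative for CD200 (-2.11), ATOH1 (-1.87), NOX1 (-1.68), LINC00261 (-1.67) and NEURL1 (-1.57). The differences of CYP1A1 and ALDH1A3 missed the threshold in at least 1 fit that left out a library.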

How the results depend on the processing

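Leaving out each library in turn gave 3392 to 3594 genes changed between the high and low dose, against 4254. Other settings gave 3705 (DESeq2) to 5270 (the 18 extract libraries). With library totals 1363 genes were higher. Between medium and low dose 1 gene passed when only the libraries compared were fitted, with or without the replicate block. The Yijin-tang count of 295 became 726 with the 18 extract libraries, 869 with only the libraries compared, 1579 with these and the replicate block, and 147 to 222 without 1 library. The count of differences between formulas (727) became 1339, 1352 and 1639 in the same settings and 551 to 631 without 1 library. The cause was not tested. High-dose and low-dose libraries with the same replicate number had correlated deviations of -0.0247 to 0.00465 in Soshiho-tang and 0.0521 to 0.0886 in Yijin-tang, none over 0.1, so the numbers were not taken to pair them. In Yijin-tang each library correlated best with its own number, a hint from the data and not from the design. The replicate block gave 4399 genes changed between high and low dose. Of 309 named genes called between doses, 282 passed in every setting, 27 missed the threshold in at least 1, and 0 reversed. Depth limits the lowest genes: 58.7% of the at least 2-fold falls lay below 1 CPM. Of 2016 list counts over all settings, 177 moved by over 1.5 times.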

Other observations

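Some large falls were of genes near the detection limit, named after their values were seen. ADH1C, an alcohol dehydrogenase, had 0.0914, 0.108 and 0.300 CPM at the high dose and 1.76, 1.23 and 1.33 CPM at the low dose (-3.14 ± 0.34; edgeR quasi-likelihood adjusted p = 3.8e-08). ADH6, another member, had 0.274, 0.324 and 0.5 CPM at the high dose and 2.16, 2.21 and 2.55 CPM at the low dose (-2.67 ± 0.22). The groups did not overlap in either gene. The differences from Yijin-tang were -2.09 for ADH1C and -1.76 for ADH6, and both passed the test.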
